A study of Mus musculus with 4 samples.

Results

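The nuclear genes for the subunits of the mitochondrial respiratory chain were followed in dendritic cells (DC) of the mouse spleen. The genes were chosen by symbol, as every gene of the array whose symbol starts with Nduf, Uqcr, Atp5 or Cox4 to Cox8, together with Sdha to Sdhd and without Cox6a2, so that no measured value entered the choice. This gave 86 of 17097 genes, with 147 probe sets. There were 33 genes of complex I, 4 of complex II, 7 of complex III, 18 of complex IV, 17 of complex V and 7 assembly factors of complex I. The prefixes also took in 7 tissue isoforms of complex IV and its relatives (Cox4i2, Cox6b2, Cox7a1, Cox7b2, Cox8b, Cox8c and Ndufa4l2) and the supercomplex factor Cox7a2l, and Ndufa4 was counted with complex IV, where its protein is found. Ndufs5 was represented by the symbol Ndufs5-ps of the annotation, and some subunits were not analysed here. Cyc1 of complex III lacks the chosen prefixes and was counted in another list.

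Splenic DC of mice that lack the scavenger receptor MARCO (MARCO-/-) and of wild-type (WT) mice were cultured overnight with lipopolysaccharide (LPS, 100 ng/ml) or with PBS, and 1 Affymetrix array was hybridized for each of the 4 conditions: MARCO-/- with LPS, WT with LPS, MARCO-/- with PBS and WT with PBS. The mice were 8 to 12 weeks old, on a background that the labels spell C56BL/6 and the methods C57BL/6. The WT mice were purchased and the MARCO-/- line came from earlier work. The DC were taken by positive selection for CD11c from pools of 5 to 6 mice, and more than 90% of such cells carried MHC-II, CD80 and CD86. Values are intensities on a linear scale, and ratios are given on the log2 scale, so that 1 is a 2-fold difference. Each condition had 1 array, so a ratio has no error and no test, and counts and medians are set beside those over all genes. Levels of different genes are not compared, because probe sets differ in their response.

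The respiratory chain moves electrons from NADH (complex I) and succinate (complex II) through ubiquinone, complex III, cytochrome c and complex IV to oxygen, and complex V, the ATP synthase, uses the proton gradient so built to make ATP. Complexes I, III, IV and V combine subunits encoded by mitochondrial DNA with nuclear ones, and complex II is wholly nuclear. Many nuclear subunits descend from the bacterial enzyme and carry its redox centres or catalytic sites, whereas the supernumerary subunits were added around this core during evolution. DC and macrophages exposed to LPS are known for a shift of ATP production toward glycolysis, and in cells that express inducible nitric oxide synthase the nitric oxide formed inhibits complex IV. None of the subunits encoded by mitochondrial DNA was measured here.

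The 4 arrays differed in markers of other tissues. The summed intensity of 12 skeletal muscle markers was 56.1 with LPS and 246 with PBS in MARCO-/- DC, and 596 with LPS and 69.6 with PBS in WT DC. The sum of 9 fibroblast and matrix markers was 45.2 with LPS and 490 with PBS in MARCO-/- DC, and 1494 with LPS and 46.1 with PBS in WT DC, so that the WT LPS array was the highest in both lists. With LPS, MARCO-/- DC had more than 2-fold less of all 12 muscle markers than WT DC had. The summed intensity of 10 DC markers was 5576 with LPS and 13206 with PBS in MARCO-/- DC, and 6229 with LPS and 12662 with PBS in WT DC. This sum is set by its brightest genes. Of the 10, 7 were lower with LPS in both genotypes (5 by 1.5-fold) and 3 higher in both (3 by 1.5-fold). The summed intensity of 9 macrophage markers was 603 with LPS and 2815 with PBS in MARCO-/- DC, and 404 with LPS and 1740 with PBS in WT DC. In such bulk RNA, fewer cells of a type and less RNA per cell cannot be told apart. The 3' to 5' ratio of control probe sets is a sign of RNA quality. For Gapdh it was 2.20 and 2.17 on the LPS arrays of MARCO-/- and WT DC and 1.82 and 1.77 on their PBS arrays. For Actb it was 1.66 and 1.86 on the LPS arrays and 1.59 and 1.45 on the PBS arrays, in the same order. The probe set for Marco lay near the median of all intensities (4.86) on all arrays, at 4.25 with LPS and 3.95 with PBS in MARCO-/- DC and at 3.15 with LPS and 8.05 with PBS in WT DC, so it was no firm check of the labels. The part of these differences in the ratios of the respiratory chain genes was not tested.

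Genes of the respiratory chain are known to share binding sites for the factors NRF1 and NRF2 (GABP) near their starts, and 6 promoters are shown here because the genes carry the range of responses described below. Each is the RefSeq sequence (GRCm38.p6) of the 250 bases before a start of the gene, 5′ to 3′ on the strand of the gene. Atp5j has another start as well. Its sequence shown was chosen because it holds a core, and the bases around the other start hold none. Capitals mark the core GCATGCG of the NRF1 motif and the ETS core CCGGAAG bound by GABP, on either strand (CGCATGC and CTTCCGG on the other), and neighbouring hits on both strands overlap. Atp5j, Atp5k, Ndufa11 and Sdhd hold a core, and Ndufb4 and Cox7a2l hold none in these bases.
Atp5j: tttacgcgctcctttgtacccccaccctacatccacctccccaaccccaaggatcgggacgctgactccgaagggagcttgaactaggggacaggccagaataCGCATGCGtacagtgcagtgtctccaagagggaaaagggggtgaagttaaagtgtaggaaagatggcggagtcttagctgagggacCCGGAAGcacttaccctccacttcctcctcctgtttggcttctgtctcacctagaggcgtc
Atp5k: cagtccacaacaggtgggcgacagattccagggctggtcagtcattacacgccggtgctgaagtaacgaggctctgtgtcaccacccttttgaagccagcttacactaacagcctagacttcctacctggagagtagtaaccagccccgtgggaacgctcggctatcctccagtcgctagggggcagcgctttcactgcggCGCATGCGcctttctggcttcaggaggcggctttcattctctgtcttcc
Ndufa11: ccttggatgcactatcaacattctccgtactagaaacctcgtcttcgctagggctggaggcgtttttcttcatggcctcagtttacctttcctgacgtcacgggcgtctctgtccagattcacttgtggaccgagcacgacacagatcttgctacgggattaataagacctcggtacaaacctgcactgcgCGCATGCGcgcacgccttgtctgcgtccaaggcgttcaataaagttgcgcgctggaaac
Sdhd: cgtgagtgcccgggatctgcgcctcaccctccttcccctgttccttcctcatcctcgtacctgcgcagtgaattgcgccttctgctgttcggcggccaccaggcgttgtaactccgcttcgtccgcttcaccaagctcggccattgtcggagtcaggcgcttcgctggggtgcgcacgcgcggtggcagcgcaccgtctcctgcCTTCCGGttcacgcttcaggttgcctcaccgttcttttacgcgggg
Ndufb4: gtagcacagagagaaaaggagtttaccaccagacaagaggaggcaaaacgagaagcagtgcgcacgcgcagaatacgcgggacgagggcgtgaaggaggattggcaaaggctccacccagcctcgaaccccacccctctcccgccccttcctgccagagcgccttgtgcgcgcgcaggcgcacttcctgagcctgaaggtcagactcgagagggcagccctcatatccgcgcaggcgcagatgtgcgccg
Cox7a2l: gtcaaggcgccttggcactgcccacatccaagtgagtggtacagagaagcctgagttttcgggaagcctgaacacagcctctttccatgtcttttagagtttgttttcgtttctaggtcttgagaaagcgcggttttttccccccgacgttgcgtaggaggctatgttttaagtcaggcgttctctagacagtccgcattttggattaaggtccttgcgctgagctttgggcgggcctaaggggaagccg

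With LPS, transcripts of the respiratory chain were on balance modestly higher, in both genotypes. In MARCO-/- DC, 60 of 86 genes were higher and 25 lower with LPS than with PBS, with a median log2 ratio of 0.16, beside a median of 0.00 over all 17097 genes. In WT DC, 63 were higher and 20 lower, with a median of 0.24, beside 0.05 over all genes. Most of the respiratory chain genes are bright, and over the 1062 genes with a mean log2 intensity of at least 8 the medians were 0.07 in MARCO-/- and 0.02 in WT DC, beside 0.18 and 0.18 for the 50 respiratory chain genes of that level. The shift was small in size. With LPS, 2 of the 86 genes passed 2-fold in either direction in MARCO-/- DC, where 12.3% of all genes did, and 1 passed in WT DC, where 14.5% did. At 1.5-fold, 8 genes were higher and 3 lower in MARCO-/- DC, beside 13.2% and 10.9% of all genes. In WT DC 19 were higher and 1 lower, beside 14.2% and 14.4%. A smaller share of the 86 than of all genes passed 2-fold or was 1.5-fold lower, and only the 1.5-fold higher count in WT DC (22.1% of the 86) was a larger share than that of all genes.

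**Figure D1:**
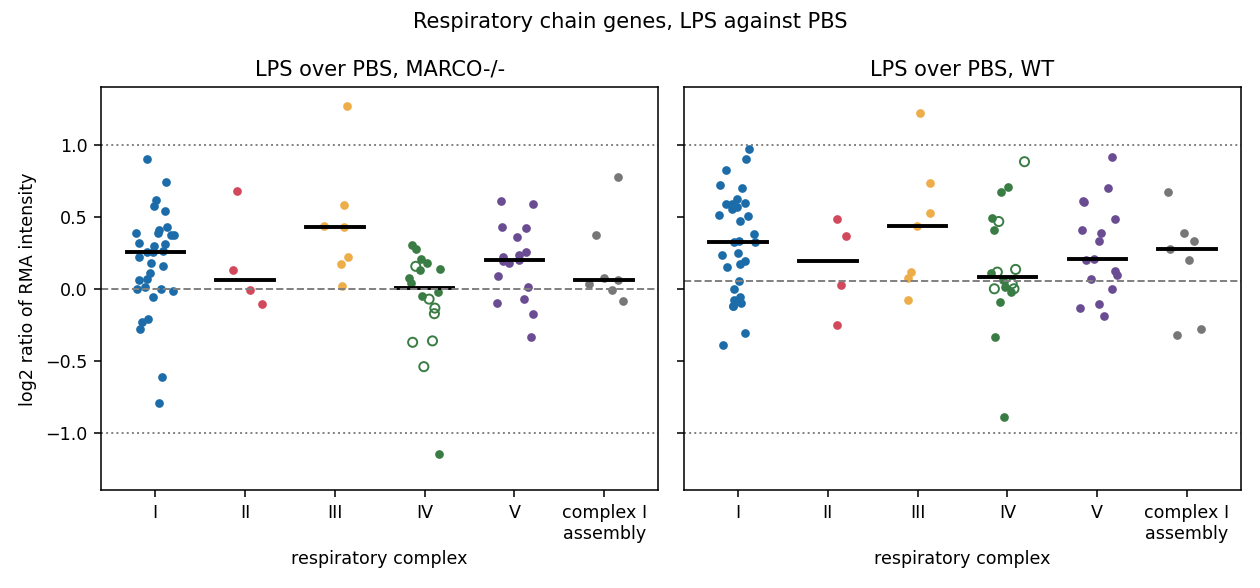
Log2 ratio of RMA intensity with LPS over PBS for each of the 86 genes, by respiratory complex, in MARCO-/- DC (left) and WT DC (right), 1 array per condition. Points are genes, open circles the 7 tissue isoforms, black bars the median of each complex, the dashed line the median of all genes and the dotted lines 2-fold; complexes I, III and V have medians of 0.20 to 0.44, and Uqcrq of complex III is the highest point and Cox7a2l of complex IV the lowest in both panels.

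Complexes I and III had the highest medians, and complex IV, with its tissue isoforms counted, the lowest. The median LPS ratio was 0.25 in MARCO-/- and 0.33 in WT DC for complex I, 0.06 and 0.20 for complex II, 0.43 and 0.44 for complex III, 0.01 and 0.08 for complex IV, and 0.20 and 0.21 for complex V. Without its tissue isoforms, complex IV had medians of 0.13 and 0.06 over 11 genes, and complex II was then the lowest in MARCO-/- DC. Over the 5 genes of complex III with a highest log2 intensity of at least 8 the medians were 0.44 and 0.12. Among these 5, Uqcrq, Uqcr10 and Uqcrb reached that level on LPS arrays only, so this filter depends on the ratio that it summarizes. All 7 genes of complex III were higher with LPS in MARCO-/- DC and 6 in WT DC. The 51 supernumerary subunits had medians of 0.22 in MARCO-/- and 0.34 in WT DC, and the 20 subunits with a bacterial counterpart had medians of 0.12 and 0.20. Of the 86 genes, 51 were higher with LPS in both genotypes, 13 lower in both and 18 opposite (59.3%, 15.1% and 20.9%), beside 32.1%, 26.7% and 31.0% of all genes.

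In complex III, Uqcrq encodes a small subunit of the ubiquinol-cytochrome c reductase and was the member with the largest LPS ratio. Its intensity was 337 with LPS and 140 with PBS in MARCO-/- DC, and 366 with LPS and 157 with PBS in WT DC. Both LPS arrays were above both PBS arrays, with ratios of 1.27 in MARCO-/- and 1.22 in WT DC. These values came from 1 probe set, and the other 3 probe sets of Uqcrq lay between 2.39 and 7.49 on all arrays, near background. Uqcr10, another small subunit, was at 275 with LPS and 183 with PBS in MARCO-/- DC and at 311 with LPS and 187 with PBS in WT DC, ratios of 0.58 and 0.74. A dimmer probe set of Uqcr10 was at 58.1 with LPS and 13.4 with PBS in MARCO-/- DC and at 53.4 with LPS and 16.4 with PBS in WT DC, which is past 2-fold in both (2.12 and 1.70). Uqcr11 had ratios of 0.43 and 0.52. Uqcrb, at 308 with LPS and 228 with PBS in MARCO-/- DC and at 262 with LPS and 248 with PBS in WT DC, had ratios of 0.44 and 0.08. The Rieske iron-sulfur protein Uqcrfs1 stayed within 0.02 and −0.08, and the core proteins Uqcrc1 (0.22 and 0.44) and Uqcrc2 (0.17 and 0.12) were between.

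In complex I, 3 of 33 genes were past 1.5-fold higher in both genotypes, beside 5 of the 86 and 1362 of all 17097 genes. These 3 were Ndufb4, Ndufab1 and Ndufs6. Ndufb4, a small subunit of the membrane arm, was at 430 with LPS and 231 with PBS in MARCO-/- DC and at 423 with LPS and 216 with PBS in WT DC, ratios of 0.90 and 0.97. The mouse genome holds close copies of Ndufb4, so its signal may be shared. Ndufab1 is the mitochondrial acyl carrier protein that serves both complex I and lipoic acid synthesis. It was at 410 with LPS and 268 with PBS in MARCO-/- DC and at 451 with LPS and 254 with PBS in WT DC. The ratios were 0.62 and 0.83, and 0.86 and 1.23 in a dimmer probe set. A still dimmer one had 0.08 in MARCO-/- (18.2 with LPS, 17.2 with PBS) and 1.43 in WT DC (45.1 and 16.8). Ndufs6, a zinc-binding subunit of the peripheral arm, was at 297 with LPS and 177 with PBS in MARCO-/- DC and at 284 with LPS and 188 with PBS in WT DC, ratios of 0.74 and 0.59. For these 3 genes both LPS arrays were above both PBS arrays. Ndufa11, a membrane-arm subunit whose promoter is shown above, had ratios of 0.43 in MARCO-/- and 0.90 in WT DC.

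Among the subunits of complex I with a bacterial counterpart, which include those that carry the flavin and the iron-sulfur clusters, probe sets of the same gene differed in size. Ndufv1, which binds NADH and FMN, had LPS ratios of 0.11 in MARCO-/- and 0.47 in WT DC, and 0.17 and 0.06 in another probe set. Ndufv2 had 0.06 and 0.33, and another of its probe sets, at 368 with LPS and 439 with PBS in MARCO-/- DC and at 707 with LPS and 409 with PBS in WT DC, had −0.25 and 0.79. Ndufs1, which holds several clusters of the NADH-oxidizing module, was slightly lower at −0.21 and −0.12. Ndufs7, next to the site that reduces ubiquinone, was at 216 with LPS and 216 with PBS in MARCO-/- DC and at 295 with LPS and 192 with PBS in WT DC, ratios of 0.00 and 0.62. Another probe set of Ndufs7 did not show this difference between the genotypes, at 130.4 with LPS and 106 with PBS in MARCO-/- DC and at 117 with LPS and 108 with PBS in WT DC, ratios of 0.30 and 0.13. Ndufs3 had ratios of 0.37 and 0.38. Ndufs8 had 0.26 and 0.24, and 0.17 and 0.55 in another probe set. By module, the 4 genes of the quinone-reducing module had medians of 0.28 and 0.50, the 10 of the NADH-oxidizing module 0.21 and 0.33, and the 19 of the membrane arm and its boundary 0.22 and 0.25.

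A few members of complex I were lower with LPS. Ndufb11, an X-linked subunit of the membrane arm, was at 579 with LPS and 1003 with PBS in MARCO-/- DC and at 794 with LPS and 1040 with PBS in WT DC, ratios of −0.79 and −0.39. Its other 2 probe sets were lower too, at −0.74 and −0.55 in MARCO-/- and at −0.41 and −0.36 in WT DC. Ndufv3, an accessory subunit of the NADH-oxidizing module, was at 272 with LPS and 416 with PBS in MARCO-/- DC and at 356 with LPS and 382 with PBS in WT DC, ratios of −0.61 and −0.10. Ndufa6 was at −0.23 and −0.30.

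**Figure D2:**
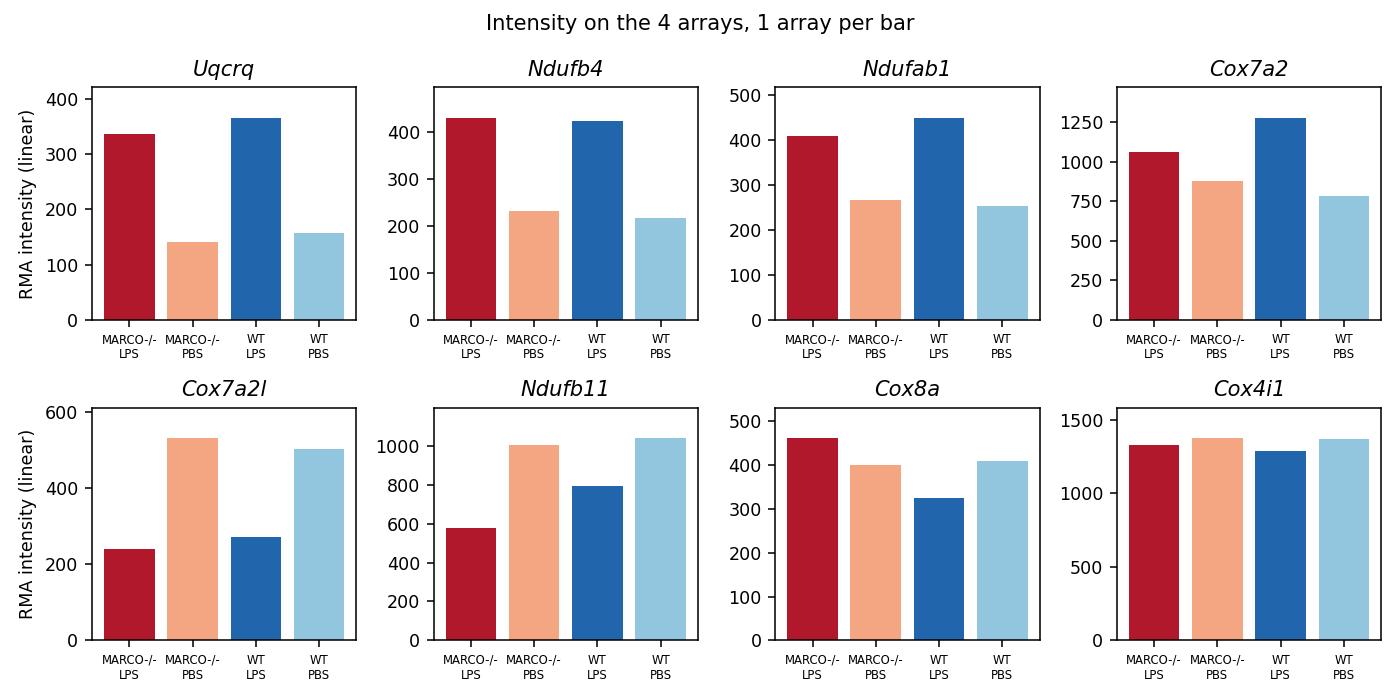
RMA intensity on a linear scale on each of the 4 arrays, 1 array per bar, for 8 genes of complexes I, III and IV. In each panel the MARCO-/- bars (LPS, then PBS) stand left of the WT bars; Uqcrq, Ndufb4 and Ndufab1 are higher and Cox7a2l and Ndufb11 lower with LPS in both genotypes, Cox8a is higher with LPS in MARCO-/- DC only (462 against 400) and Cox4i1 stays between 1287 and 1374.

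In complex IV, the LPS ratio largest in size was that of Cox7a2l, named above as a supercomplex factor. Proteins and supercomplexes were not measured. Its intensity was 240 with LPS and 531 with PBS in MARCO-/- DC, and 272 with LPS and 503 with PBS in WT DC. Both LPS arrays were below both PBS arrays, with ratios of −1.15 and −0.89, and the first passed 2-fold. The other 2 probe sets gave −1.23 and −1.18 in MARCO-/- DC, and in WT DC the lower of them passed 2-fold and the other stood at −0.99. The related subunit Cox7a2 was higher instead, at 1064 with LPS and 879 with PBS in MARCO-/- DC and at 1280.1 with LPS and 786 with PBS in WT DC, ratios of 0.27 and 0.70. Several bright subunits that surround the catalytic core hardly differed with LPS. Their ratios were −0.05 and −0.09 for Cox4i1, 0.14 and −0.02 for Cox5a, and −0.03 and 0.01 for Cox6a1. Cox6b1 had 0.13 and 0.06, and Cox6c 0.04 and 0.11. Cox5b had 0.08 and 0.49, and another bright probe set, at 517 with LPS and 339 with PBS in MARCO-/- DC and at 476 with LPS and 330.4 with PBS in WT DC, had 0.61 and 0.53. Cox7c, with 1 probe set, had 0.18 and 0.68. Ndufa4 had 0.30 and 0.41.

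Cox8a, the ubiquitous form of the smallest subunit, was the member with opposite LPS ratios of at least 0.2 in size. It was at 462 with LPS and 400 with PBS in MARCO-/- DC and at 325 with LPS and 409 with PBS in WT DC, ratios of 0.21 and −0.33, so the WT LPS array stood lowest. Its other probe set gave 0.23 and −0.32. The difference between the genotypes was not tested.

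The 7 tissue isoforms lay between 2.04 and 8.65 on all arrays, around the median of all intensities, against 14.5 to 2348 for the other 79 genes, and 4 of them were under that median on every array. Cox8b, an isoform of heart and skeletal muscle, was at 3.37 with LPS and 3.54 with PBS in MARCO-/- DC and at 6.53 with LPS and 3.54 with PBS in WT DC. The WT LPS array was thus the highest for Cox8b, as it was for the summed muscle markers (596), and the part of muscle RNA in this value was not tested. Cox7a1, the other heart and muscle isoform, was at 2.09 to 2.68 on all arrays. Cox6b2, an isoform of the testis, was at 3.90 and 5.67 in MARCO-/- DC with LPS and PBS and at 6.59 and 6.00 in WT DC. The other isoforms, Cox4i2, Cox7b2, Cox8c and Ndufa4l2, had LPS ratios of −0.37 to 0.16 in MARCO-/- and of 0.00 to 0.47 in WT DC. Ratios of these dim probe sets count in the medians of complex IV above.

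Complex II, which also belongs to the tricarboxylic acid cycle, showed ratios of both signs. Its flavoprotein Sdha was at 311 with LPS and 334 with PBS in MARCO-/- DC and at 265 with LPS and 315 with PBS in WT DC, ratios of −0.10 and −0.25, and −0.52 and −0.26 in another probe set. The iron-sulfur subunit Sdhb was at 0.13 and 0.37, the membrane anchor Sdhc at −0.01 and 0.03, and the other anchor Sdhd at 0.68 and 0.48. Sdhd was dim, at 23.1 with LPS and 14.5 with PBS in MARCO-/- DC and at 23.1 with LPS and 16.5 with PBS in WT DC.

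In complex V, all 4 genes of the peripheral stalk were higher with LPS in both genotypes, with medians of 0.32 in MARCO-/- and 0.37 in WT DC. The 5 small membrane subunits had medians of 0.18 and 0.39, the 5 genes of the head and rotor 0.01 and 0.20, and the 3 of the c ring 0.23 and 0.00. Atp5j, subunit F6 of the stalk, was at 564 with LPS and 375 with PBS in MARCO-/- DC and at 538 with LPS and 353 with PBS in WT DC, ratios of 0.59 and 0.61, with both LPS arrays above both PBS arrays. Atp5o, which links the stalk to the catalytic head, had ratios of 0.43 and 0.70. Atp5k, a membrane subunit involved in dimers of the enzyme, was at 750 with LPS and 560 with PBS in MARCO-/- DC and at 907 with LPS and 482 with PBS in WT DC, ratios of 0.42 and 0.91. Another bright probe set of Atp5k gave 0.50 and 0.68. Of the catalytic head, Atp5a1 (−0.07 and 0.07) and Atp5b (0.36 and 0.20) had ratios under 0.4 in size. The rotor gene Atp5c1 was at 932 with LPS and 1177 with PBS in MARCO-/- DC and at 1128 with LPS and 1214 with PBS in WT DC, ratios of −0.34 and −0.11. Atp5d had 0.19 and 0.48, with 0.50 and 0.46 in another probe set, and Atp5e 0.01 and 0.41. The 3 genes Atp5g1, Atp5g2 and Atp5g3 encode the same mature c subunit of the rotor ring, and they differed from each other, with LPS ratios of 0.61 and 0.21, −0.18 and −0.19, and 0.23 and 0.00 in MARCO-/- and WT DC.

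**Figure D3:**
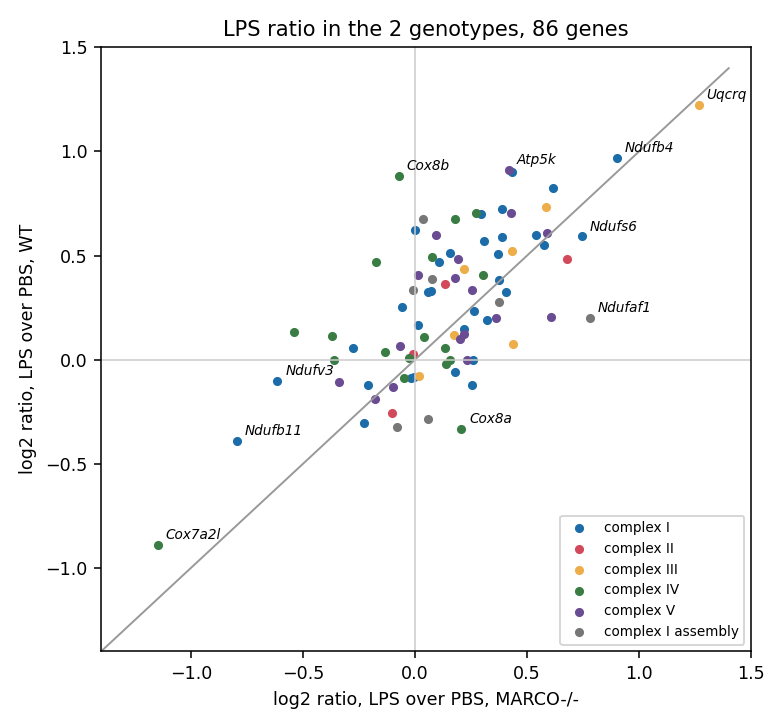
Log2 ratio with LPS over PBS in MARCO-/- DC (x axis) against that in WT DC (y axis) for the 86 genes, each point a gene from 1 array per condition, coloured by complex, with the line of equal ratios. Uqcrq and Ndufb4 lie high and Cox7a2l low in both genotypes, and Cox8b, Cox8a and Ndufaf1 lie far from the line.

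Of the 7 assembly factors of complex I, 4 were higher with LPS in both genotypes, 1 was lower in both and 2 were opposite. Ndufaf1, an assembly factor of its membrane part, was at 58.0 with LPS and 33.8 with PBS in MARCO-/- DC and at 34.4 with LPS and 29.9 with PBS in WT DC, ratios of 0.78 and 0.20, so the MARCO-/- LPS array stood above the other 3. Ndufaf2 was at 53.6 with LPS and 52.4 with PBS in MARCO-/- DC and at 72.2 with LPS and 45.2 with PBS in WT DC, ratios of 0.03 and 0.68, with the WT LPS array the highest. The other 5 factors had ratios between −0.32 and 0.39 in both genotypes.

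Between the genotypes, the respiratory chain genes differed little with PBS. None of the 86 genes passed 2-fold between MARCO-/- and WT DC with PBS, where 1.05% of all genes did, and the median ratio was 0.00, with 44 genes higher and 41 lower. At 1.5-fold, 1 gene was higher and none lower, beside 2.62% and 1.5% of all genes, and this gene was the dim isoform Ndufa4l2 (4.47 in MARCO-/- and 2.87 in WT DC). The lowest ratio was that of Ndufa3, a complex I subunit, at 710 in MARCO-/- and 1004 in WT DC with PBS (−0.50), and at 846 in MARCO-/- and 923 in WT DC with LPS (−0.13). The WT PBS array was thus the highest for Ndufa3. Complex medians ran from −0.12 (complex III) to 0.06 (complex II).

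With LPS, more of the genes were lower than higher in MARCO-/- DC as deposited, but this split depended on the processing. Of 86 genes, 55 were lower and 29 higher in MARCO-/- than in WT DC with LPS, with a median of −0.10, beside 47.0% lower and a median of 0.00 over all genes and a median of 0.06 over those with a mean log2 intensity of at least 8. With the arrays centred on their medians, 44 were lower and 42 higher (median −0.02), and without probe sets ending in x_at, s_at or a_at, 35 of 67 were lower and 30 higher (−0.03). None passed 2-fold, where 3.4% of all genes did. At 1.5-fold, Ndufaf1 was higher (0.75) and the dim isoforms Cox8b (−0.95) and Cox6b2 (−0.76) were lower, beside 8.76% of all genes higher and 4.92% lower. In complex I, 24 of 33 genes were lower in MARCO-/- DC with LPS, with a median of −0.14, among them 9 of the 10 genes of the NADH-oxidizing module, but without probe sets ending in x_at, s_at or a_at 13 of 25 were lower and 12 higher (−0.03). The lowest of complex I were Ndufb11 (579 in MARCO-/- and 794 in WT DC, −0.45), Ndufa12 (453 and 621, −0.45) and Ndufs7 (216 and 295, −0.45). Another probe set of Ndufs7 gave 0.15, and 1 of the 2 others of Ndufb11 gave −0.07. Complex III was at −0.12, complex V at −0.06, complex IV at −0.02 and complex II at 0.00. Cox8a was the highest bright gene, at 462 in MARCO-/- and 325 in WT DC (0.51).

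**Figure D4:**
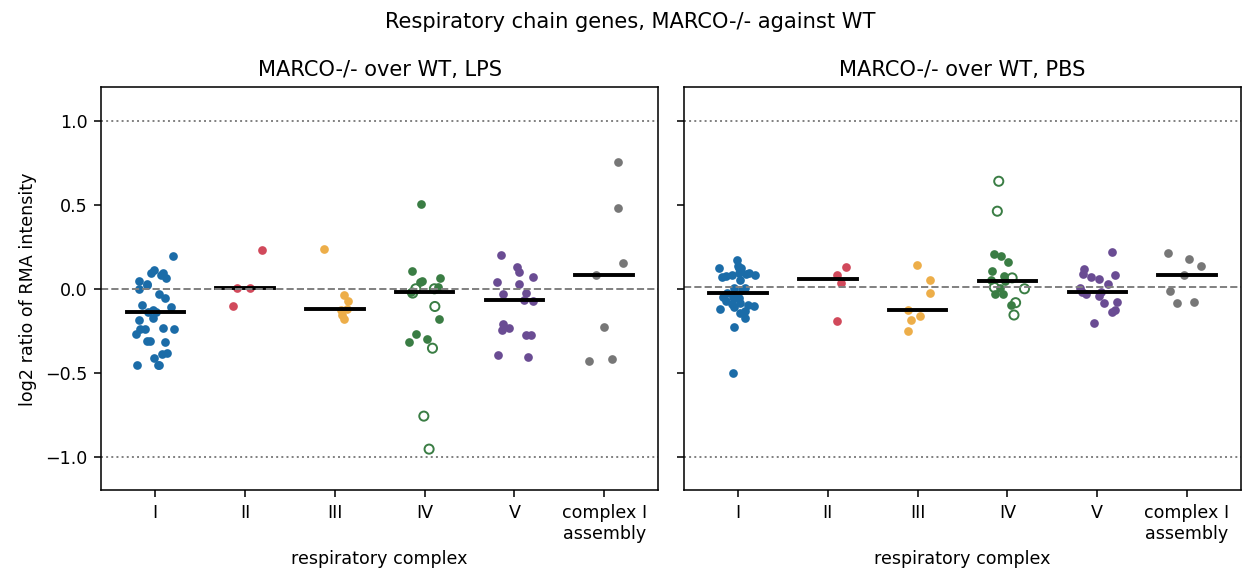
Log2 ratio of RMA intensity in MARCO-/- over WT DC with LPS (left) and with PBS (right) for each of the 86 genes by complex, 1 array per condition, with open circles for the tissue isoforms. Black bars are the medians of the complexes, the dashed line the median of all genes and the dotted lines 2-fold, which no gene passes; with LPS the complex I median is −0.14, with PBS it is −0.02.

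The LPS ratio in WT DC and the genotype ratio with LPS share the WT LPS array, so a high value on that array raises the first and lowers the second. The LPS ratio in MARCO-/- minus that in WT DC had a median of −0.09 over the 86 genes, with 52 of them below 0, beside −0.02 and 51.5% of all genes. It was largest in size for Cox8b (−0.95) and Cox6b2 (−0.68), both dim isoforms, followed by Ndufaf2 (−0.64), the dim isoform Ndufa4l2 (−0.64), Ndufs7 (−0.62) and Ndufaf1 (0.58). None of these differences could be tested with 1 array per condition.

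Genes with several probe sets allowed a comparison within the same RNA. Of 61 further probe sets, 41 from 32 genes reached a log2 intensity of 5 on an array. Where the chosen probe set had an LPS ratio of at least 0.2 in size, the further ones had the same sign in 26 of 26 cases in MARCO-/- and in 32 of 32 in WT DC. For MARCO-/- over WT it was 9 of 16 with LPS and 2 of 2 with PBS. The cut at a log2 intensity of 5 used the highest array, and a probe set each of Uqcr10 and Ndufab1 passed it only through LPS arrays. It left out dim probe sets, among them some of the opposite sign. That of Ndufa12 had LPS ratios of −0.79 in MARCO-/- and −1.16 in WT DC, and that of Ndufs4 −0.68 and −1.73. The agreement in sign thus depends in part on the cut. Probe sets of a gene on 1 array are measurements of the same RNA and not replicates of a condition. A dim probe set of Ndufab1 passed 2-fold between the genotypes with LPS, at 18.2 in MARCO-/- and 45.1 in WT DC (−1.31), where the chosen one gave −0.14.

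The windows from 250 bases before to 50 bases after the start were at hand for 70 of the 86 genes. An NRF1 core stood in 18.6% of the 70 and in 5.79% of the 13605 genes of the array with a window, and an ETS core in 24.3%, against 2044 of those 13605 genes. Among the 866 such genes with a mean log2 intensity of at least 8, the shares were 7.97% and 21.5%. Either core stood in 34.3% of the 70 genes, beside 19.6% of the 13605 and 27.5% of the 866. By complex, 7 of 15 genes of complex V and 6 of 29 of complex I (20.7%) held either core. Complexes II, III and IV had 2 of 3, 2 of 4 and 3 of 13, and the assembly factors 4 of 6. The 24 genes with a core had a median LPS ratio of 0.17 in MARCO-/- and 0.35 in WT DC, and the 46 genes without had 0.19 and 0.30. Of the promoters shown above, those of Atp5k and Ndufa11 (0.91 and 0.90 in WT DC) hold a core, and that of Ndufb4 (0.97) holds none. A match is a description of letters and not a bound site.

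Other lists of mitochondrial genes differed in direction. The mitochondrial ribosomal proteins, which translate the subunits encoded by mitochondrial DNA, were higher with LPS, with medians over 73 genes of 0.38 in MARCO-/- and 0.63 in WT DC, and 7 and 16 of them (9.59% and 21.9%) were past 2-fold higher, none lower, beside 6.32% and 6.20% of all genes past 2-fold higher. Mrps6 was at 139 with LPS and 48.2 with PBS in MARCO-/- DC (1.53) and at 177 with LPS and 36.0 with PBS in WT DC (2.30), where it was the highest of the list. The list was lower in MARCO-/- than in WT DC with LPS, with a median of −0.21 and 57 of 73 genes lower. Among 37 assembly factors named otherwise, with medians of 0.26 in MARCO-/- and 0.39 in WT DC, Cox17, which carries copper to complex IV, was the highest at 981 with LPS and 334 with PBS in MARCO-/- DC and 996 with LPS and 279 with PBS in WT DC (1.55 and 1.84). Tmem70, an assembly factor of complex V, had 1.38 and 1.41, and Sco1, another copper protein of complex IV, 1.41 and 1.24. Over 13 genes of electron carriers and nucleotide exchange the medians were 0.33 and 0.14, with 0.40 and 0.56 for cytochrome c (Cycs). This list also held Cyc1 of complex III, with 0.51 and 0.77.

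**Figure D5:**
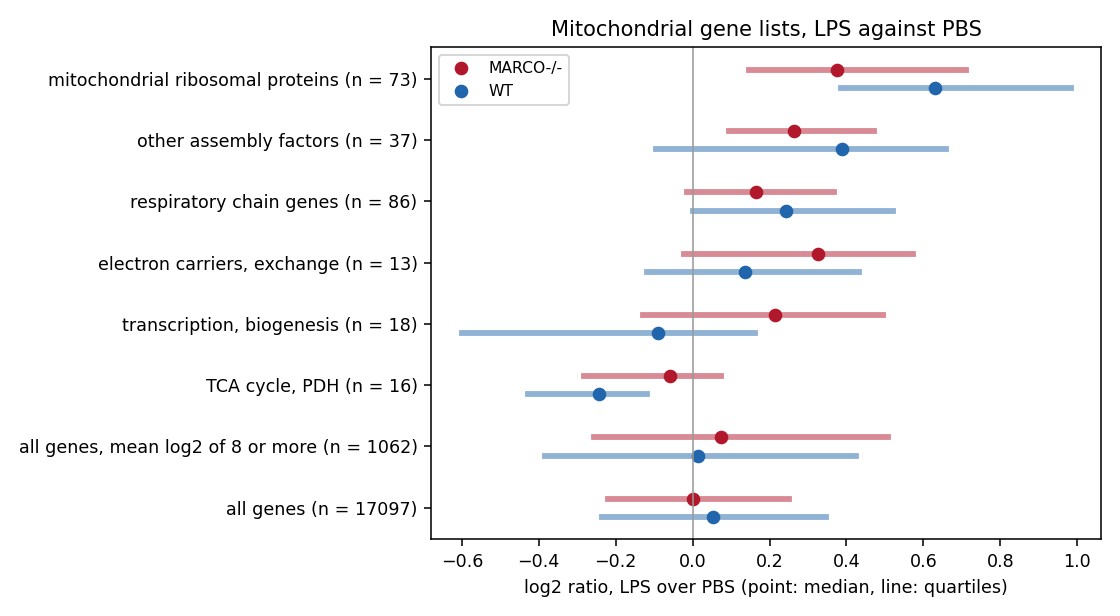
Median (point) and quartiles (line) of the log2 ratio with LPS over PBS over the genes of each list, in MARCO-/- DC (red, upper line of each pair) and WT DC (blue), with the number of genes beside each name. Of the lists plotted, the mitochondrial ribosomal proteins have the highest medians, 0.38 and 0.63, and the tricarboxylic acid (TCA) cycle with pyruvate dehydrogenase (PDH) the lowest, −0.06 and −0.24, beside 0.00 and 0.05 for all genes.

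The enzymes that feed the chain with reducing equivalents were mostly lower with LPS. Of 16 genes of the tricarboxylic acid cycle and pyruvate dehydrogenase, 10 were lower with LPS in MARCO-/- and 14 in WT DC, with medians of −0.06 and −0.24. Idh2, the NADP-dependent isocitrate dehydrogenase, was at 22.6 with LPS and 89.4 with PBS in MARCO-/- DC and at 24.1 with LPS and 95.9 with PBS in WT DC (−1.99 and −1.99). Mdh2, malate dehydrogenase, had −1.48 and −0.85. Of 15 genes of glycolysis 9 and 11 were higher with LPS, with medians of 0.37 and 0.42, and Pfkfb3, which makes the activator of phosphofructokinase, had 2.75 and 2.15. Acod1, which makes itaconate, an inhibitor of succinate dehydrogenase, was at 350 with LPS and 7.73 with PBS in MARCO-/- DC and at 326 with LPS and 8.99 with PBS in WT DC (5.50 and 5.18). Nos2, the inducible nitric oxide synthase, was under the median of all intensities on all 4 arrays.

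Among 18 genes of mitochondrial transcription and biogenesis, 16 were higher in MARCO-/- than in WT DC with LPS, with a median of 0.41, against 9 of 18 and 0.01 with PBS. Tfam, which packs and transcribes mitochondrial DNA, was at 85.8 with LPS and 53.0 with PBS in MARCO-/- DC and at 62.9 with LPS and 64.8 with PBS in WT DC. Tfb2m, a transcription factor of mitochondrial DNA, was at 53.3 with LPS and 45.5 with PBS in MARCO-/- DC and at 32.1 with LPS and 57.5 with PBS in WT DC, so the WT LPS array was the lowest in this gene. The 8 genes of oxidant defence had median LPS ratios of 0.62 in MARCO-/- and 0.45 in WT DC, and Nnt alone passed 2-fold between the genotypes. This transhydrogenase, which makes NADPH in the mitochondrion, was at 37.7 with LPS and 99.9 with PBS in MARCO-/- DC and at 13.9 with LPS and 31.2 with PBS in WT DC, higher in MARCO-/- DC by 1.44 with LPS and 1.68 with PBS. Sublines of C57BL/6 are known to differ in Nnt, and the part of the mouse strain in this value was not tested. Sod2, the superoxide dismutase of the mitochondrion, had LPS ratios of 1.62 and 1.03, and Gpx4, a lipid peroxidase, 1.39 and 1.25.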

How the data were processed

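Total RNA of splenic DC was hybridized to 1 array for each of 4 conditions. The deposited values are intensities that the authors background-corrected, normalized and summarized with RMAexpress, so that dim probe sets gather near a common floor, and log2 values were computed without an offset. Of 45141 probe sets, 104 controls were left out and 28898 had exactly 1 gene symbol. A gene was represented by its probe set of highest mean log2 intensity. The 4 comparisons used the 2-fold threshold of the methods. With 1 array per condition there was no test, and the number of arrays limits the precision. Genes named were those past 2-fold, the highest and lowest of each complex and comparison, a set of core subunits and the isoforms, and others named beside them were chosen after their values were seen. The genes, the lists and the named sets were chosen with earlier results of these data known. Alternatives were other scalings (limma 3.58.1 in R 4.3.3), other probe set choices, filters on low values and thresholds of 1.5-fold and 3-fold. The counting step was tested on simulated data. Python 3.11.15 with pandas 2.3.3 was used.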

Additional observations from a re-analysis of the deposited data

Results flagged for a closer look

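For 4 genes, ratios of at least 0.2 in size had opposite signs in the 2 settings compared, and these differences were not tested, since each rests on 1 array per condition. Cox8a had an LPS ratio of 0.21 in MARCO-/- DC and −0.33 in WT DC. Atp5g1, 1 of the genes for the c subunit of complex V, had a MARCO-/- over WT ratio of 0.20 with LPS and −0.20 with PBS. Atp5k had −0.27 with LPS and 0.22 with PBS, but another bright probe set of Atp5k gave −0.10 and 0.08, under 0.2 in size. Ndufaf2 had −0.43 with LPS and 0.21 with PBS.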

How the results depend on the processing

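No paired analysis was possible because each condition had 1 array. Under all planned settings the median LPS over PBS ratio of the 86 genes kept its sign. It ran from 0.09 to 0.22 in MARCO-/- and from 0.20 to 0.33 in WT DC. The highest value in WT DC came from the filter on the highest log2 intensity, which a gene can pass through LPS arrays alone. The median for MARCO-/- over WT kept its sign with LPS, at −0.16 to −0.02, and ran from −0.02 to 0.03 with PBS. The counts past 2-fold depended on the probe sets. Without probe sets ending in x_at, s_at or a_at the count was 1 in MARCO-/- DC with LPS (Uqcr10, higher). In WT DC it was 3, with Ndufab1 and Uqcr10 higher and Ndufa12 lower, and for MARCO-/- over WT with LPS 1 (Ndufab1, lower). The Ndufa12 probe set was dim, at 8.23 with LPS and 18.3 with PBS in WT DC (−1.16), where the chosen one gave 0.72. With every probe set the counts were 5, 7 and 1, of which 3, 3 and 1 were lower. Without assembly factors, isoforms and Cox7a2l the count in MARCO-/- DC was 1. At 1.5-fold the counts were 11 in MARCO-/- DC, 20 in WT DC, 3 for MARCO-/- over WT with LPS and 1 with PBS, and at 3-fold they were 0 in MARCO-/- DC and 0 in WT DC. With all probe sets averaged per gene, Uqcrq had LPS ratios of 0.31 in MARCO-/- and 0.52 in WT DC, since its other probe sets are near background, and Uqcr10 was past 2-fold in its place. Medians of single complexes moved more. With LPS over PBS in MARCO-/- DC, quantile normalization gave 0.16 for complex I and 0.10 for complex V, and the median of complex II was 0.06 in WT DC over the 2 genes with a highest log2 intensity of at least 8. Centring the arrays, quantile normalization and cyclic loess left the same genes past 2-fold.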
